A study of Homo sapiens with 5 samples.

Results

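Histones package DNA into nucleosomes, and 51 histone genes were measured here by RNA-seq and by ribosome profiling (Ribo-seq, sequencing of the mRNA fragments that ribosomes protect, called footprints below). They are the genes among 10504 with one entry each in the deposited abundance table whose symbols begin with HIST1H to HIST4H, H2AF, H3F3 or H1F. Of these, 41 are HIST genes and 10 are variant histones. The samples came from HEK293A, an adherent line derived from human embryonic kidney cells. The cells carried a control siRNA (siCon, 2 libraries) or an siRNA against IRE1α (siIRE1a, 2 libraries), a stress sensor of the endoplasmic reticulum encoded by ERN1, and every group had been starved before fetal bovine serum was added, with none left unstimulated. A further sample is a Ribo-seq library in which both siRNA groups were multiplexed. The sample descriptions name RNA-seq for siCon and Ribo-seq for siIRE1a, whereas the tables give both assays for both groups, so the libraries behind each column cannot be told from the labels. The deposited tables give 1 value per gene, assay and siRNA group, so no spread between replicates stands beside an RNA or footprint value, and whether the replicates were separate cultures is not stated.

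The 4 titled libraries had between 28769136 and 49112701 clusters, and how many reads stand behind a gene's value is unknown. ERN1 RNA was 0.121 in siCon and 0.0736 in siIRE1a cells, and its footprints were 0.402 and 0.275. Of 8 marker genes of the line, KRT8, KRT18, VIM and CDH2 were among the measured genes, and none of 8 blood, liver and endothelial markers was. The unit of the abundances is not stated. Values were lower for genes of greater coding length (Spearman's rho −0.24 for siCon RNA and −0.51 for siCon footprints), and levels of different genes are set side by side on this deposited scale only. Translational efficiency (TE) is the footprint value over the RNA value of the same group, and the authors' deposited table tests its change for each gene. All changes are siIRE1a relative to siCon.

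Nucleosomes hold DNA around the core histones H2A, H2B, H3 and H4, and the linker histone H1 binds where DNA enters and leaves them. Most core and linker histones are made in S phase from the replication-dependent HIST genes. Their mRNAs end in a stem-loop bound by the protein SLBP in place of a poly(A) tail, and the stem-loop is needed for processing, translation and rapid decay of the message. Variant histones such as H2A.Z and macroH2A are made throughout the cell cycle, mostly from polyadenylated mRNAs.

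Stem-loops are shown first because they mark the replication-dependent class, and their letters differed between H4 and the other HIST types. All 51 genes matched the GENCODE release 29 transcripts by symbol, and a pattern of 16 letters was searched on the sense strand after the stop codon. It fixes GG at the start, CTTTT and AG around the loop and CC at the end and leaves the letters between them free. It was found in 17 HIST genes and 1 variant, H2AFX, which encodes the H2A form phosphorylated at DNA breaks. Among 10137 other genes of the table with a coding transcript, 0.0789% held it. Of the 41 HIST genes, 22 have an annotated transcript that ends at the stop codon, so the motif could be found in 19 at most. In 7 of the 17, the annotated transcript also runs on past the stem-loop to an AATAAA within 50 bases of its end. The examples below are members on which results turn, 5′ to 3′, with the 16 bases of stem and loop in capitals.
HIST1H2AE: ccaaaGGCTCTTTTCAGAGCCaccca
HIST1H2AG: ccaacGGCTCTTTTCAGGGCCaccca
HIST2H2BF: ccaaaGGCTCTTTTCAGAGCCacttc
HIST1H3H: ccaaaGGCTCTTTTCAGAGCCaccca
HIST3H3: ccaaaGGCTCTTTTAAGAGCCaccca
HIST1H4E: tcaaaGGCCCTTTTCAGGGCCgccca
HIST2H4A: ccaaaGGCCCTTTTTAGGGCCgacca
HIST4H4: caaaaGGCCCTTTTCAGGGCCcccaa
H2AFX: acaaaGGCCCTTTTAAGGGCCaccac
The form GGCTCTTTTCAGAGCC was found in 3 H2A, 4 H2B and 3 H3 genes and in no H4 gene. The 5 H4 genes carried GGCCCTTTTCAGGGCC (3 genes) or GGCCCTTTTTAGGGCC (2 genes).

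Some HIST genes are near-identical copies, which limits how far the values of those genes can be told apart. In 17 of the 41, at least 50% of the 30-base stretches of the coding sequence also occur in a transcript of another gene, and in 7 all of them do, at 100 bases as well. How reads that match several genes were assigned is not given in the sources used here. HIST2H3A and HIST2H3C had equal values in every column and are 1 observation. HIST2H4A and HIST2H4B had equal footprints but different RNA values. In 25 HIST genes no stretch of 100 bases is shared with another gene.

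Histone messages had some of the highest footprint values on the deposited scale, where values were lower for genes of greater coding length. HIST2H4A and HIST2H4B had the highest siCon footprint value of all 10504 genes (812), and 7 of the 10 highest and 25 of the 100 highest values belonged to HIST genes. These counts are of genes, and both include HIST2H4A and HIST2H4B with equal values and HIST2H3A and HIST2H3C with equal values. Per type, the HIST genes with the highest siCon footprints were HIST1H1C for H1 (458), HIST2H2AC for H2A (347), HIST2H2BF for H2B (507), HIST2H3A and HIST2H3C for H3 (552) and HIST2H4A and HIST2H4B for H4. The lowest were HIST1H3J (4.20) and HIST1H4L (8.69). Among variants, H3F3A, which encodes the replacement H3, was highest at 220, and H2AFZ, which encodes H2A.Z, followed at 187.

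Footprints stood high relative to RNA. The median siCon TE was 26.0 for HIST genes, 16.2 for the variant class and 4.70 for all genes, and 10 HIST genes were among the 100 highest TE values. HIST1H3H had 208 in footprints on an RNA value of 1.68, a TE of 124. TE levels of different genes also depend on how fully each mRNA is captured in the RNA libraries. The labels name total RNA and regular RNA-seq without saying whether poly(A) selection was used, so the part of missing poly(A) tails in these levels was not tested.

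**Figure D1:**
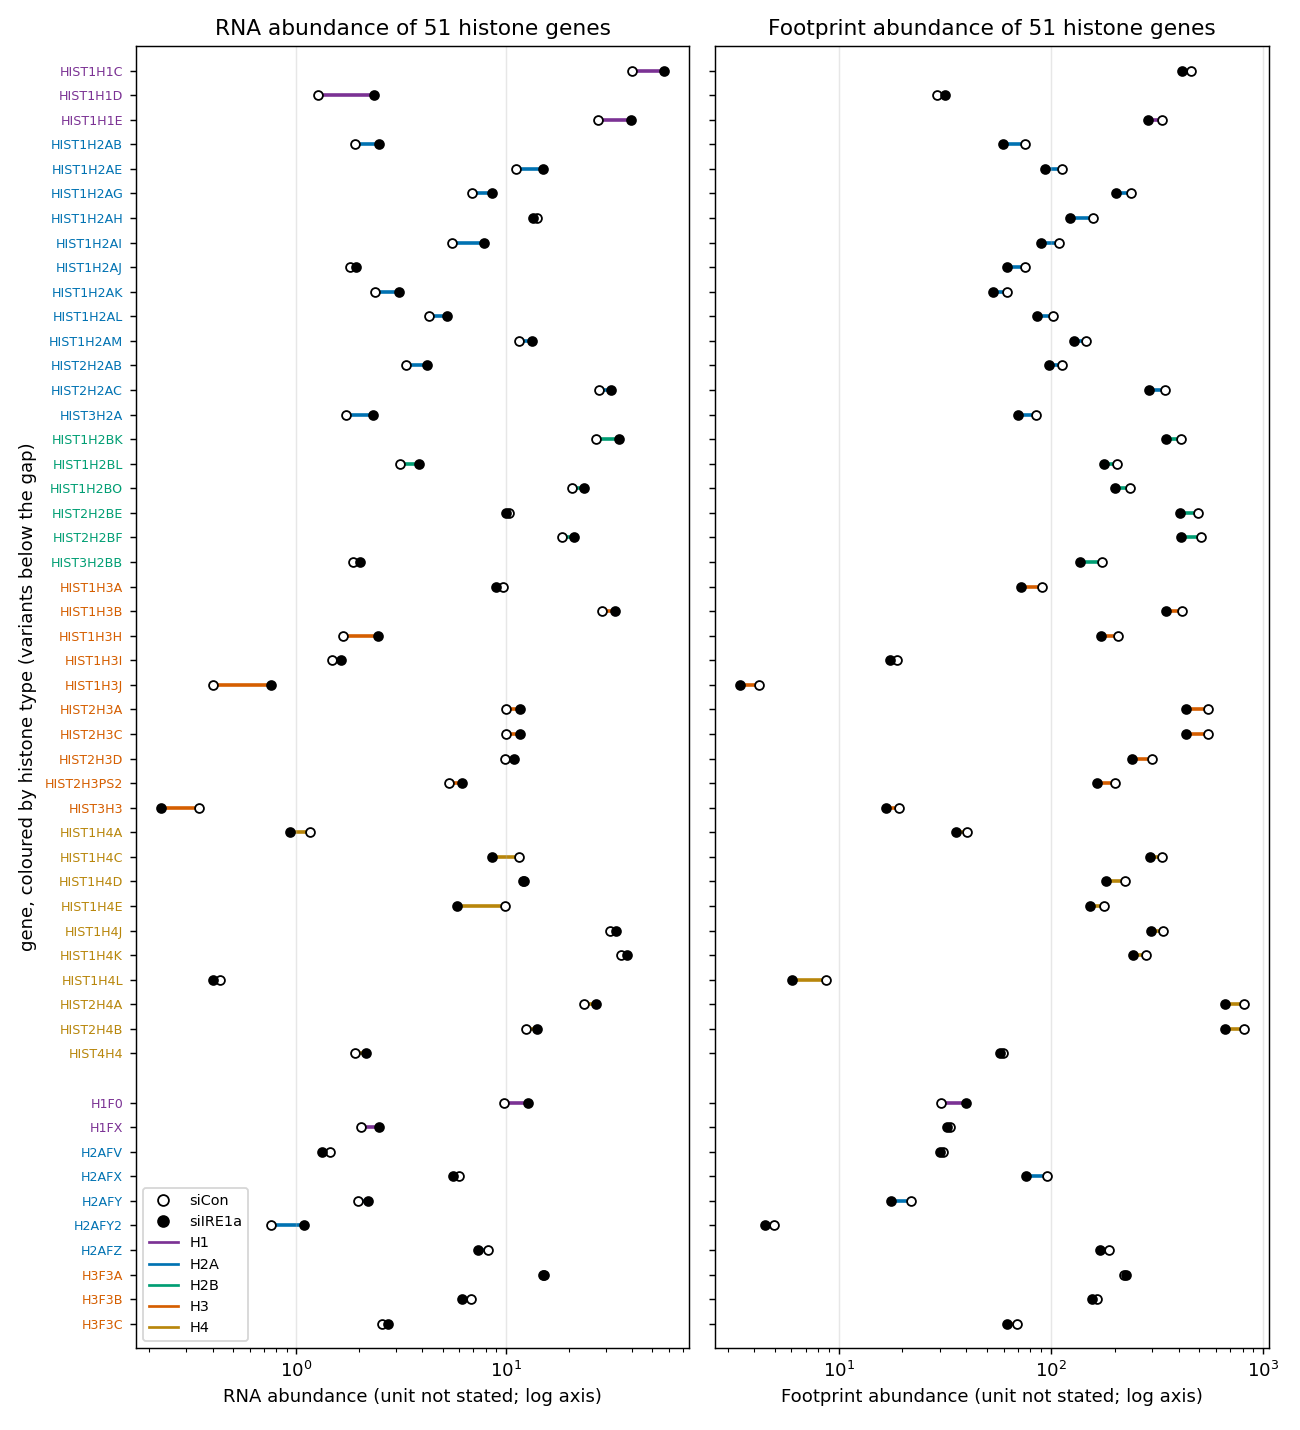
RNA (left) and footprint (right) abundance of each histone gene on log axes, on the deposited scale whose unit is not stated; open circles are siCon, filled circles siIRE1a, 1 value each, and lines are coloured by histone type. Filled circles lie to the left of open ones in footprints for 40 of 41 HIST genes, while RNA of 33 HIST genes lies to the right.

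In siIRE1a cells most HIST genes had more RNA and fewer footprints than in siCon cells. RNA was above siCon in 33 of 41 HIST genes (48.8% of all 10504 genes were), with a median change of 0.20 on the log2 scale against −0.01 for all genes, which became −0.023 once the trend of RNA change with GC content was removed. Footprints were below siCon in 40 of 41 (67.9% of all genes), with a median of −0.26 against −0.08, which became −0.012 under quantile normalization. In 32 HIST genes both held, as they did in 28.8% of all genes. RNA was at least 25% higher in 13 HIST genes (16.0% of all genes) and at least 20% lower in 3 (21.6%). Footprints were at least 20% lower in 7 HIST genes (7.98% of all genes) and at least 25% higher in 0 (4.33%). In bulk samples a different share of cells in S phase and a different amount of histone RNA per cell cannot be told apart.

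Footprints were also lower in most other genes with high footprints. The 218 other genes with a mean footprint abundance of at least 50 had a median footprint change of −0.22, with 89.9% of them below siCon and 27.5% at least 20% lower. Their median RNA change was 0.00, with 49.5% above siCon and 14.2% at least 25% higher. Among the HIST genes themselves, footprint changes lay close together (SD 0.10 over 41 genes) and RNA changes were spread more widely (SD 0.33). RNA changes were also the wider over all genes (SD 0.37, footprints 0.22) and over the 218 other genes (SD 0.35, footprints 0.17). Genes are not replicates, and many HIST genes share sequence.

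Variant histones lay nearer to 0 than HIST genes in the values as deposited. Their median RNA change was 0.07, with 6 of 10 above siCon. It turned to −0.033 with the trend on coding GC content removed, against 0.0023 for HIST genes. With the trend on transcript GC content removed it was 0.061, against −0.023 for HIST genes. In footprints the median was −0.11, with 8 of 10 below. Under quantile normalization it turned to 0.060, against −0.012 for HIST genes. In these 3 recomputed medians the variants were not the nearer class.

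**Figure D2:**
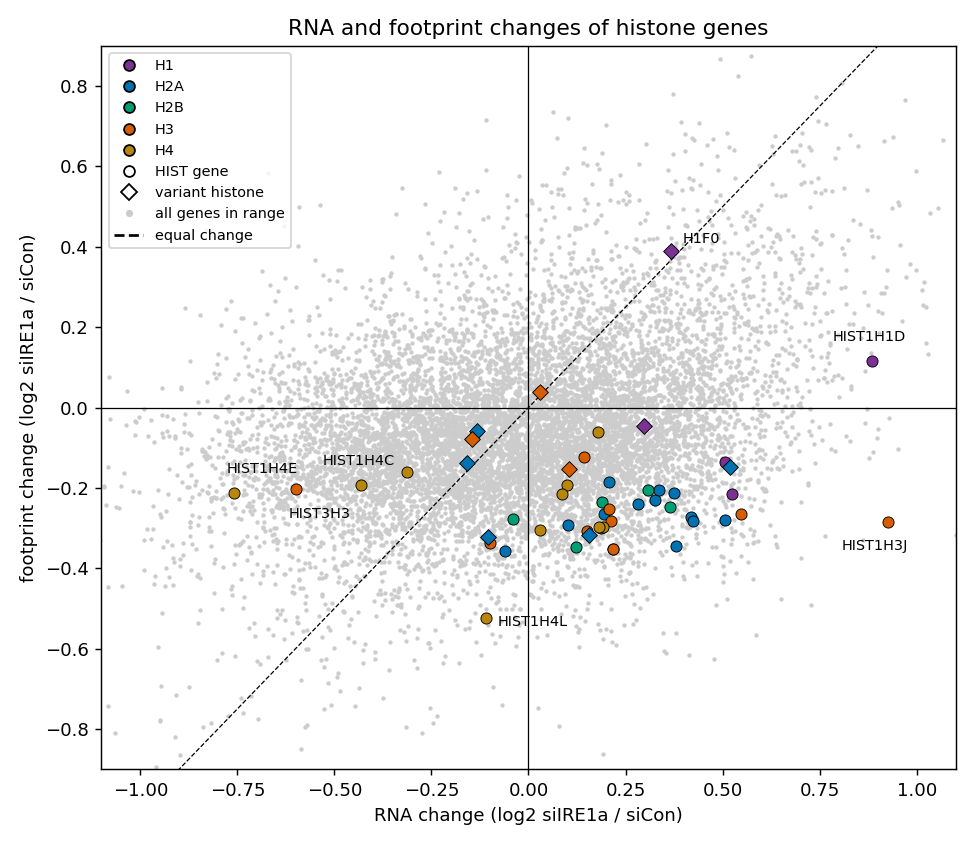
Footprint change against RNA change, both log2 of siIRE1a over siCon, 1 value per gene; circles are HIST genes, diamonds variant histones, colours mark the histone type and grey points all genes within the axes and the dashed line equal change. Most HIST genes form a band near −0.26 in footprints that extends from −0.76 (HIST1H4E) to 0.93 (HIST1H3J) in RNA.

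TE fell in 21 of 41 HIST genes at an adjusted p under 0.05 in the authors' deposited table, against 4.62% of 8878 tested genes, and rose in 1, against 5.90%. The median log2 change in TE was −0.48 for HIST genes and −0.04 for all genes in the authors' deposited table. Of the 218 other genes with high footprints, TE fell in 24.8% and rose in 6.42% in that table, beside 19 falls among the 35 HIST genes above the same minimum. Of the 10 variants, TE fell in 2, both macroH2A genes, and none rose (0 also at an unadjusted p under 0.05, recovered from the table's adjusted p). With the GC trend removed, 1 fall among HIST genes and 0 among variants passed, beside 20 among the 218 other genes with high footprints. With HIST2H3A and HIST2H3C counted once, the falls among HIST genes as deposited numbered 20. In 13 of the 21 HIST genes whose TE fell, RNA had moved further than footprints. TE changes below 0 were found in 37 of 41 HIST genes (53.4% of tested genes) in the authors' deposited table, 16 of them among the 19 genes that were not called, the nearest to the threshold being HIST1H3B (−0.47, adjusted p = 0.0522). HIST2H2AB (adjusted p = 0.0369) was the fall just inside it.

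**Figure D3:**
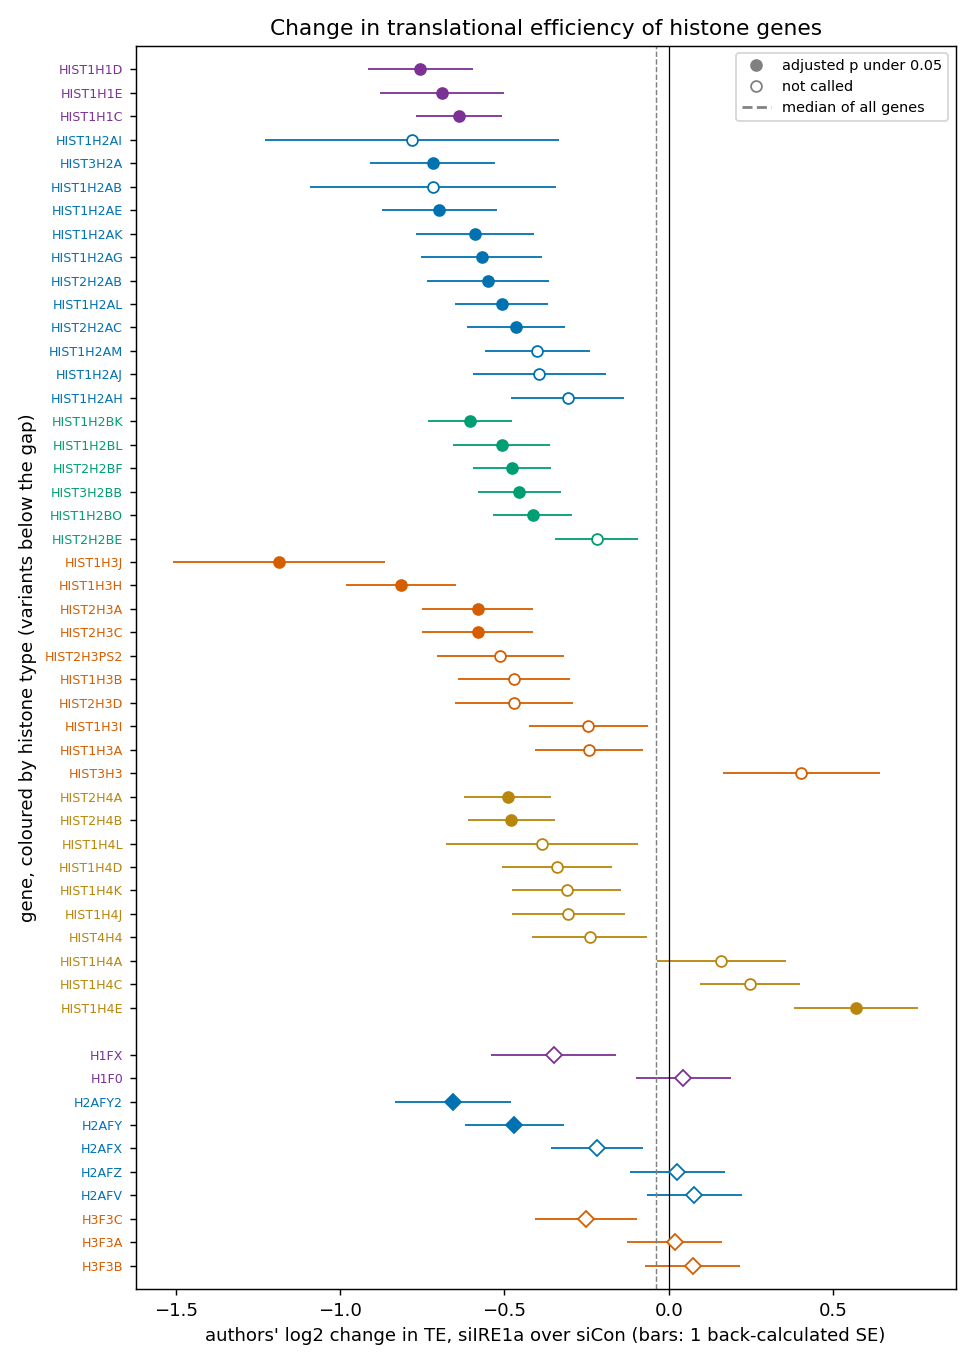
The authors' log2 change in TE for each histone gene, with bars of 1 standard error back-calculated from the adjusted p; filled symbols have an adjusted p under 0.05, circles are HIST genes, diamonds variants, and the dashed line is the median of all genes. All 3 measured HIST genes of type H1 and 5 of 6 H2B genes are filled on the left. H4 holds the only filled symbol on the right.

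All 3 measured HIST genes for linker histones had higher RNA and lower TE. HIST1H1C RNA was 40.1 in siCon and 56.9 in siIRE1a cells, and its footprints were 458 and 417. HIST1H1E RNA was 27.6 and 39.7, with footprints of 332 and 286. HIST1H1D RNA was 1.27 and 2.35, with footprints of 29.2 and 31.6. RNA was thus higher by 0.51, 0.52 and 0.88 on the log2 scale, and HIST1H1D was the only HIST gene with more footprints in siIRE1a cells. In the authors' deposited table TE of HIST1H1C fell by 0.64 (back-calculated SE 0.13, adjusted p = 0.000195), that of HIST1H1E by 0.69 (SE 0.19, adjusted p = 0.00800) and that of HIST1H1D by 0.76 (SE 0.16, adjusted p = 0.000327). These 3 share almost no sequence with other genes, with at most 1.3% of 30-base stretches shared.

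H2A genes had a median RNA change of 0.33, with 11 of 12 above siCon, and all 12 had fewer footprints (median −0.27). HIST1H2AE RNA was 11.2 in siCon and 15.0 in siIRE1a cells and its footprints were 113 and 93.9. Its TE fell by 0.70 in the authors' deposited table (adjusted p = 0.00330). HIST3H2A, outside the large clusters, had RNA of 1.73 and 2.32 and footprints of 85.1 and 70.0, and TE fell by 0.72 in the authors' deposited table (adjusted p = 0.00624). In both genes RNA was higher and footprints were lower in siIRE1a cells.

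HIST1H2AG had RNA of 6.87 and 8.61 and footprints of 238 and 203, with a TE change of −0.57 in the authors' deposited table (adjusted p = 0.0279). For HIST1H2AK the RNA values were 2.38 and 3.09 and the footprints 62.0 and 53.5, and its TE change was −0.59 in the authors' deposited table (adjusted p = 0.0180). HIST1H2AL RNA was 4.31 and 5.24 and its footprints were 102 and 86.2, with a TE change of −0.51 in the authors' deposited table (adjusted p = 0.00966). These 3 lie on chromosome 6 in the HIST1 cluster. On chromosome 1, HIST2H2AB had RNA of 3.33 and 4.20 and footprints of 113 and 98.3, with a TE change of −0.55 in the authors' deposited table (adjusted p = 0.0369). HIST2H2AC, the H2A gene with the highest siCon footprints, had RNA of 27.8 and 31.8 and footprints of 347 and 289. Its TE change was −0.47 in the authors' deposited table (adjusted p = 0.0279). TE changes of all 12 H2A genes were below 0, and 7 of them passed the test. HIST1H2AH was the exception in RNA, at 14.1 and 13.5, and its footprints were 158 and 124 (log2 −0.36), with a TE change of −0.31 that did not pass (adjusted p = 0.241) in the authors' deposited table. HIST1H2AI had RNA of 5.55 and 7.89 and a TE change of −0.78, with a back-calculated SE of 0.45 and an adjusted p of 0.249 in the authors' deposited table; 83.2% of its 30-base stretches are shared. HIST1H2AB, HIST1H2AJ and HIST1H2AM did not pass either, with TE changes between −0.72 and −0.39 in that table.

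H2B genes had smaller RNA changes, with a median of 0.19 and 5 of 6 above siCon, and TE fell in 5 of 6. HIST1H2BK RNA was 27.0 in siCon and 34.8 in siIRE1a cells and its footprints were 412 and 348, with a TE change of −0.61 in the authors' deposited table (adjusted p = 0.000364). HIST2H2BF RNA was 18.5 and 21.1 and its footprints were 507 and 412, with a TE change of −0.48 in the authors' deposited table (adjusted p = 0.00296). For these genes the footprint decrease and the RNA increase both entered the TE fall. HIST1H2BL had RNA of 3.11 and 3.86, footprints of 205 and 178 and a TE change of −0.51 in the authors' deposited table (adjusted p = 0.0131). HIST1H2BO had RNA of 20.6 and 23.5, footprints of 236 and 201 and a TE change of −0.41 in that table (adjusted p = 0.0115). HIST3H2BB had RNA of 1.86 and 2.02 and footprints of 174 and 137, and its TE change was −0.45 in the authors' deposited table (adjusted p = 0.00957). HIST2H2BE was the gene that did not pass, with RNA of 10.3 and 10.0, footprints of 493 and 406 and a TE change of −0.22 in the authors' deposited table (adjusted p = 0.254). Its footprint change was −0.28 beside a median of −0.26 for the type, and its RNA change was −0.04.

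The largest TE falls of single genes were in H3, and TE fell in 4 of 10 H3 genes, with HIST2H3A and HIST2H3C both counted. By type, the median TE change of HIST genes in the authors' deposited table was −0.69 for H1, −0.56 for H2A, −0.49 for H3, −0.47 for H2B and −0.31 for H4. HIST1H3J, which had the lowest footprints of the type, had RNA of 0.400 in siCon and 0.760 in siIRE1a cells and footprints of 4.20 and 3.45. The authors' deposited table gave its TE change as −1.19 with a back-calculated SE of 0.32 (adjusted p = 0.00775). HIST1H3H had RNA of 1.68 and 2.45 and footprints of 208 and 173, with a TE change of −0.81 (SE 0.17, adjusted p = 0.000218) in the authors' deposited table. No 100-base stretch of either is shared with another gene. HIST2H3A and HIST2H3C, counted as 1, had RNA of 10.0 and 11.6 and footprints of 552 and 432 (log2 −0.35), and the authors' deposited table gave a TE change of −0.58 (adjusted p = 0.0124). The other HIST2 genes of this type, HIST2H3D (−0.47, adjusted p = 0.0671) and HIST2H3PS2 (−0.51, adjusted p = 0.0682), did not pass by the authors' deposited table. HIST3H3, a testis histone, went the other way in RNA, at 0.343 and 0.227 with footprints of 19.3 and 16.8, and its TE change of 0.40 did not pass in the authors' deposited table (adjusted p = 0.267). HIST1H3A and HIST1H3I did not pass, with TE changes of −0.24 each in the authors' deposited table. Both HIST1H3J and HIST3H3 have RNA values below 1.

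H4 genes divided into copies with slightly more RNA and copies with less. The median RNA change of the 10 genes was 0.06, and none was higher by as much as 25%. RNA was above siCon in 6 of them and below in 4. HIST1H4E had RNA of 9.85 in siCon and 5.83 in siIRE1a cells, 1.69-fold lower, and footprints of 178 and 154. It was the 1 HIST gene whose TE rose, with a log2 change of 0.57 (SE 0.19, adjusted p = 0.0321) in the authors' deposited table. HIST1H4C had RNA of 11.6 and 8.61 and footprints of 336 and 294, and HIST1H4A had RNA of 1.16 and 0.937 and footprints of 40.1 and 35.9. Their TE changes of 0.25 and 0.16 did not pass in the authors' deposited table (adjusted p = 0.291 and 0.632). HIST1H4E, HIST1H4C and HIST1H4A all had fewer footprints, like the rest of the type, and at most 2.1% of the 30-base stretches of these 3 genes occur elsewhere.

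Both H4 copies on chromosome 1 had a TE fall, but these falls are not independent, because both genes had the same footprint values. HIST2H4A RNA was 23.6 and 27.0 and that of HIST2H4B 12.5 and 14.1, and both had footprints of 812 and 660. TE of HIST2H4A changed by −0.49 (adjusted p = 0.00745) and that of HIST2H4B by −0.48 (adjusted p = 0.00829) in the authors' deposited table. HIST1H4J and HIST1H4K, whose coding sequence is wholly shared, had RNA changes of 0.10 and 0.09 and TE changes of −0.31 and −0.31 that did not pass in the authors' deposited table (adjusted p = 0.239 and 0.213). HIST1H4L had the largest footprint decrease of the HIST genes, from 8.69 to 6.04 (1.44-fold lower), and a TE change of −0.39 in the authors' deposited table (adjusted p = 0.403). Its RNA was 0.435 in siCon and 0.403 in siIRE1a cells. HIST4H4, the single member on chromosome 12, had RNA of 1.91 and 2.16 and footprints of 59.8 and 57.4, and neither its TE change (−0.24) nor that of HIST1H4D (−0.34) passed in the authors' deposited table.

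Among variants, both macroH2A genes had a TE fall. These encode H2A with a large globular tail domain, enriched on silent chromatin. H2AFY had RNA of 1.97 and 2.19 and footprints of 22.0 and 17.6, and TE fell by 0.47 in the authors' deposited table (adjusted p = 0.0259). H2AFY2 had RNA of 0.760 and 1.09 and footprints of 4.99 and 4.50, and TE fell by 0.66 in the authors' deposited table (adjusted p = 0.00702). H2AFZ and H2AFV, both encoding H2A.Z, had TE changes of 0.03 and 0.08 (adjusted p = 0.916 and 0.778) in the authors' deposited table. H2AFZ RNA was 8.18 and 7.33 with footprints of 187 and 170. H2AFX, the variant with a stem-loop, had RNA of 6.01 and 5.59 and footprints of 95.7 and 76.5. Its footprint change, −0.32, was the largest decrease among the variants. No stem-loop was found in the others, of which H2AFY was also at −0.32 and the rest lay between −0.15 (H3F3C) and 0.39 (H1F0). The TE change of H2AFX, −0.22, did not pass in the authors' deposited table (adjusted p = 0.316).

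The replacement H3 genes differed little in either assay as deposited. With the transcript GC trend removed, RNA changes were 0.39 for H3F3A, −0.38 for H3F3B and 0.23 for H3F3C. TE changes with the trend removed were −0.31, 0.38 and −0.33 in the same order, and none passed. The errors used for H3F3A and H3F3B were medians of genes with similar footprint abundance. H3F3A RNA was 15.0 in siCon and 15.2 in siIRE1a cells and its footprints were 220 and 226. H3F3B RNA was 6.82 and 6.17 and its footprints were 165 and 156. Their TE changes were 0.02 and 0.07 (adjusted p = 0.948 and 0.777), and that of H3F3C was −0.25 (adjusted p = 0.288), all from the authors' deposited table. All coding stretches of H3F3A occur in another annotated transcript. H1F0, the linker histone that accumulates in non-dividing cells, had the largest footprint increase of all 51 genes, from 30.5 to 40.0 (1.31-fold higher), and its RNA went from 9.84 to 12.7. Its TE change was 0.04 in the authors' deposited table (adjusted p = 0.864). H1FX, the other variant linker histone, had RNA of 2.03 and 2.49, footprints of 33.5 and 32.5 and a TE change of −0.35 in that table (adjusted p = 0.223).

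RNA changes in these libraries followed the GC content of the transcript, and HIST genes are GC-rich. Across 10188 genes, which are not independent, the RNA change rose with GC content with a Spearman's rho of 0.62. Median GC content was 59.9% for HIST genes, 53.2% for variants and 48.2% for all genes. A cubic trend over all genes gives the HIST genes a median RNA change of 0.23 at their GC content, and with the trend subtracted their median was −0.023. With the same trend removed from TE, 1 of the 21 falls passed the test, HIST1H3H (adjusted p = 0.00246), against 0.453% of 8614 genes. None rose, against 0.998%, and the median TE change of HIST genes was −0.22. Among the 218 other genes with high footprints, 20 falls and 3 rises passed with the trend removed, and the median TE change was −0.10. Neither macroH2A gene passed (adjusted p = 0.611 for H2AFY and 0.224 for H2AFY2), nor did HIST1H4E (adjusted p = 0.164). The GC content of the 22 HIST genes annotated only over the coding sequence leaves out their untranslated ends. Other annotated transcripts run on past the stem-loop, and their GC content includes that stretch. For HIST1H3H it was 49.1% over the transcript and 63.5% over the coding sequence, and for HIST1H4E 45.8% and 57.1%. HIST1H1D stood 0.72 and HIST1H3J 0.69 above the RNA trend, and HIST3H3 stood at −0.84 and HIST1H4E at −0.68.

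**Figure D4:**
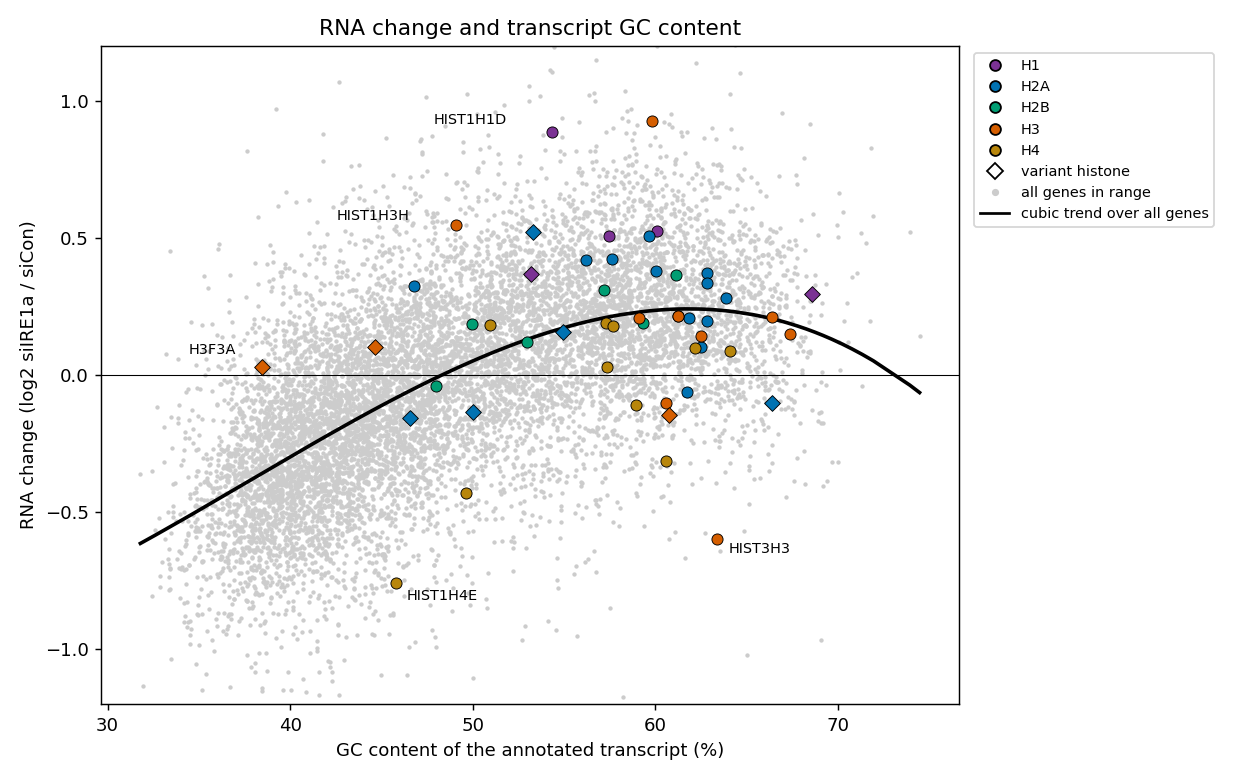
RNA change (log2 of siIRE1a over siCon) against GC content of the annotated transcript in percent; grey points are all genes within the axes, the line is the cubic trend over all genes, circles are HIST genes and diamonds variants. HIST genes lie around the trend, with HIST1H1D and HIST1H3H above it and HIST3H3 and HIST1H4E below it.

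Of the histone mRNA processing list, 25 genes were measured, and their medians were −0.08 for footprints and −0.10 for RNA on the log2 scale, the latter turning to 0.05 with the GC trend removed. Of 23 tested, TE fell in 3 (4.62% of all tested genes) and rose in 1 (5.90%) in the authors' deposited table, and 0 of these passed with the GC trend removed. SLBP, which binds the stem-loop, had RNA of 1.79 and 1.50 and footprints of 17.1 and 13.9, and its TE change was −0.02 in the authors' deposited table (adjusted p = 0.953). NPAT, the coactivator of HIST transcription, had RNA of 0.199 and 0.180 and footprints of 0.923 and 1.05, with a TE change of 0.33 in the authors' deposited table (adjusted p = 0.302). SLBP was lower in both assays, and NPAT values are low. The factors whose TE fell in the authors' deposited table were SYMPK (−0.59, adjusted p = 0.0185), the scaffold of the histone cleavage complex, UPF1 (−0.52, adjusted p = 0.0159), a helicase in histone mRNA decay, and CPSF1 (−0.59, adjusted p = 0.0323). CPSF2, a subunit of the histone cleavage complex, rose by 0.56 (adjusted p = 0.0120) in the authors' deposited table.

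The histone chaperone and exchange list had medians of −0.13 for RNA and −0.14 for footprints over 41 measured genes. Of 39 tested, TE rose in 3 (5.90% of all tested genes) and fell in 0 (4.62%) at an adjusted p under 0.05 in the authors' deposited table, and 4 were lower at a recovered unadjusted p under 0.05. With the GC trend removed, 0 of the 3 rises passed. ANP32E, the chaperone that removes H2A.Z, had RNA of 2.79 and 1.47 and footprints of 10.3 and 9.88, and TE rose by 0.90 in the authors' deposited table (adjusted p = 8.5e-05). ATRX, which deposits replacement H3 with DAXX, rose by 0.57 (adjusted p = 0.0169) and MIS18A, needed at centromeres, by 0.68 (adjusted p = 0.0238) in the authors' deposited table. Genes of S phase, when HIST genes are expressed, had a median RNA change of −0.03 over 43 measured genes, 19 of them above siCon and none by as much as 25%. Their median footprint change was −0.17, with 42 of 43 below siCon (67.9% of all genes). TE fell in 3 (4.62% of all tested genes) and rose in 2 (5.90%) in the authors' deposited table, and 0 of the falls passed with the GC trend removed. RFC3, a clamp loader subunit, had a TE rise of 0.62 in the authors' deposited table (adjusted p = 0.0139), which did not pass with the GC trend removed (adjusted p = 0.542). Of the 3 falls, the authors' deposited table ranks FEN1 first (−0.41, adjusted p = 0.0320), a nuclease of Okazaki fragments, and then POLE (−0.39, adjusted p = 0.0388), a replicative polymerase.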

How the data were processed

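RNA-seq and Ribo-seq values of siCon and siIRE1a HEK293A cells were used. The submitters' processing notes name the hg19 (GRCh37) genome and Bowtie 1.1.2. Counting, scaling and the combination of replicates are not given in the sources used here. The authors deposited 1 footprint and 1 RNA abundance per gene and group, as a score whose unit is not stated, and TE as their ratio. The authors' deposited comparison table, named after DESeq2, holds each gene's TE effect on the log2 scale with an adjusted p-value. Per the file headers, a run summary gives the count of clusters per library and a mean quality score.

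Of 10522 entries, 9 symbols entered more than once were left out. RNA and footprint changes are log2 ratios with no pseudocount and no test. TE calls use an adjusted p under 0.05. Standard errors were recovered from it (Benjamini-Hochberg reversed, normal test, two-sided); genes whose recovered p reached 0.5 took the median error of genes with similar footprint abundance. This was tested on simulated data. GC content, stem-loops and shared stretches came from GENCODE release 29 (GRCh38), which matched 10188 genes; coordinates are omitted because the builds differ. Groups are set beside all genes, without a test. The members and lists were chosen with earlier results of these data known. Genes given in full are those called and those with the highest siCon footprints of each type and class. The 3 largest increases and decreases in RNA and in footprints (mean of 1 or above) are also given in full. Of the other lists, at most 4 called genes are given, with SLBP and NPAT. Other named genes were chosen after their values were seen. One called gene of the S-phase list is not reported here. Python 3.11.15, numpy 2.4.6, pandas 2.3.3 and scipy 1.17.1 were used.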

Additional observations from a re-analysis of the deposited data

How the results depend on the processing

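Results were computed again with other scalings, pseudocounts of 0.1 and 1, minimum abundances of 0.5 and 1, other thresholds and identical values counted once. A median was taken as moved at a shift of 0.1 on the log2 scale or more. Coding GC content, the choice of members by shared sequence, and leaving out H4 genes or HIST1H4E were chosen after seeing the data. Of the recomputed values, 77 were medians on the same side of 0 that shifted by less than this or counts within 1.5 times the reported one, 5 medians moved, 4 turned and 11 counts of calls shrank further. Removing the transcript GC trend turned the median RNA change of HIST genes to −0.023 and moved their TE median to −0.22; the coding GC trend gave 0.0023 and −0.23, and turned the variants to −0.033 in RNA and 0.036 in TE. Quantile normalization moved the footprint median of HIST genes to −0.012 and their TE median to −0.25, and turned the footprint median of variants to 0.060. TE falls among HIST genes numbered 1 without the transcript GC trend, 3 without the coding GC trend and 13 at an adjusted p under 0.01. They numbered 12 among the 24 genes with under 50% of 30-base stretches shared, where fewer genes enter, and 25 at an adjusted p under 0.1. TE falls among variants were 1 at an adjusted p under 0.01 and 0 without either GC trend. The single TE rise, HIST1H4E, was lost (0 rises) at an adjusted p under 0.01, without the transcript GC trend, without H4 genes and, by construction, without that gene. The cause of these shifts was not tested. No paired analysis was possible because the tables hold 1 value per group, and leaving out replicates was not run for the same reason. The depth behind each value is unknown, so the HIST genes with a mean RNA value under 1 (HIST1H3J, HIST3H3 and HIST1H4L) cannot be given a counting error.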
